A study of Rattus norvegicus with 72 samples.

Results

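Glomeruli microdissected from sham-operated rats were compared between 72 h and 48 h after surgery, in 8 of the 72 libraries of the series: sham libraries numbered 1 to 4 at 48 h and 1 to 4 at 72 h. All genes were followed, and the members were chosen by their labels alone. The rats were adult male Sprague-Dawley animals, an outbred strain, fed normal chow. In the sham operation the right renal pedicle was dissected under general anesthesia and the incision was closed, so both kidneys stayed in place in every rat of both groups. For comparison over the same interval, 3 further sets of 8 libraries were read: glomeruli after removal of the right kidney (nephrectomy), S1 segments of the early proximal tubule after sham surgery, and whole left kidney after sham surgery. Glomeruli of both surgeries at 24 h entered the fits. The labels do not say from which kidney the glomeruli were dissected. Nor do they say how many glomeruli or rats made up a library, and the p-values therefore rest on library-to-library spread, part of which may be technical.

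The glomerulus is the filter of the kidney, a tuft of capillaries whose wall is made by fenestrated endothelium, a basement membrane and podocytes, with mesangial cells between the loops. The thick ascending limb of the loop of Henle returns to its own glomerulus and touches it at the macula densa. Recovery from anesthesia and abdominal surgery involves adrenal glucocorticoids, whose receptor switches on a defined set of genes in most tissues. Kidney cells also run a circadian clock, in which Arntl (BMAL1) drives the repressors Nr1d1 and Ciart and the output factor Dbp, and Nr1d1 in turn represses Arntl. A comparison of sham rats at different times therefore covers recovery, time of day and dissection together, and the design cannot tell these apart.

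Counts assigned to genes ran from 5.89 to 12.5 M (M, 1000000) per library at 48 h and from 10.2 to 16.5 M at 72 h. The podocyte marker Nphs1 (nephrin) stood at 1279, 1398, 1177 and 1990.1 counts per 1000000 (CPM) at 48 h and at 1931, 1911, 1450.2 and 2645 CPM at 72 h, against 2.4 to 4.17 CPM in the 48 h S1 libraries, as a glomerular label requires. The proximal marker Slc34a1 read 42.4, 3.42, 5.6 and 7.69 CPM at 48 h and 22.9, 14.3, 37.5 and 13.2 CPM at 72 h. The libraries differed in the share of uniquely placed reads that fell in genes: 29.5, 33.7, 21.4 and 40.1% at 48 h, and 13.98, 13.3, 18.7 and 35.1% at 72 h. Library 4 of 72 h was thus unlike the other 3 of its group, and it also had the fewest genes with a count, 19968 against 26084 to 28069. The sham 24 h glomerulus library 2 stood apart from the rest, with 12618 CPM of Slc34a1 and 26.7 CPM of Nphs1.

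No gene passed an adjusted p of 0.05 in edgeR's quasi-likelihood test on all 24 glomerulus libraries: 0 of 21415 tested (0%), with a smallest adjusted p of 0.410 and 2406 genes (11.2%) at an unadjusted p under 0.05. The count depended on how the libraries were weighed. With the 8 libraries alone, edgeR called 27 of 17584 genes (0.154%), 11 higher (0.0626%) and 16 lower (0.091%) at 72 h, and without sham 24 h library 2 it called 3 of 22405 (0.0134%). DESeq2's Wald test called 44 of 16514 (0.266%). Voom with sample quality weights, which gave library 4 of 72 h a weight of 0.291 and sham 24 h library 2 a weight of 0.0566, called 5267 of 21415 (24.6%), 3203 higher (15%) and 2064 lower (9.64%). Of the 27 genes called in the 8 libraries, 22 were also called by voom and 12 by DESeq2. In each of the 27 the groups did not overlap, so leaving out 1 library could not turn a direction, and none turned. The count of genes called ran from 4 without library 3 of 72 h to 597 without library 4 of 72 h. It was 5, 9, 405, 8 and 43 without 48 h libraries 1, 2, 3 and 4 and 72 h library 2. Below, "fell" and "rose" are used of sham glomerulus genes called in the 8 libraries alone, which is an alternative to the fit of 24, and values without such a verb did not pass there.

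Several genes of the thick ascending limb fell in the 8 libraries. Umod, which encodes uromodulin, the most abundant protein of normal urine, read 261, 293, 139 and 165 CPM at 48 h and 6.02, 5.65, 5.25 and 0 CPM at 72 h. Every 48 h library was above every 72 h library, and library 4 of 72 h held no count of it. The log2 fold change was -5.56 ± 0.71 (SE) in the 8 libraries (edgeR adjusted p = 0.0117) and -5.65 ± 1.74 in the fit of 24. Slc12a1, the NKCC2 cotransporter that furosemide blocks, read 572, 299, 221 and 197 CPM at 48 h and 15.7, 7.58, 15.2 and 2.5 CPM at 72 h, a log2 fold change of -4.90 ± 0.54. The groups again did not overlap. Kcnj1 (ROMK), the potassium channel that recycles potassium for that cotransporter, read 36, 17.3, 17.1 and 13.8 CPM and then 1.87, 1.72, 2.16 and 1.67 CPM. Library 1 of 48 h carried the highest value of Kcnj1, and the 72 h libraries lay close together.

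**Figure D1:**
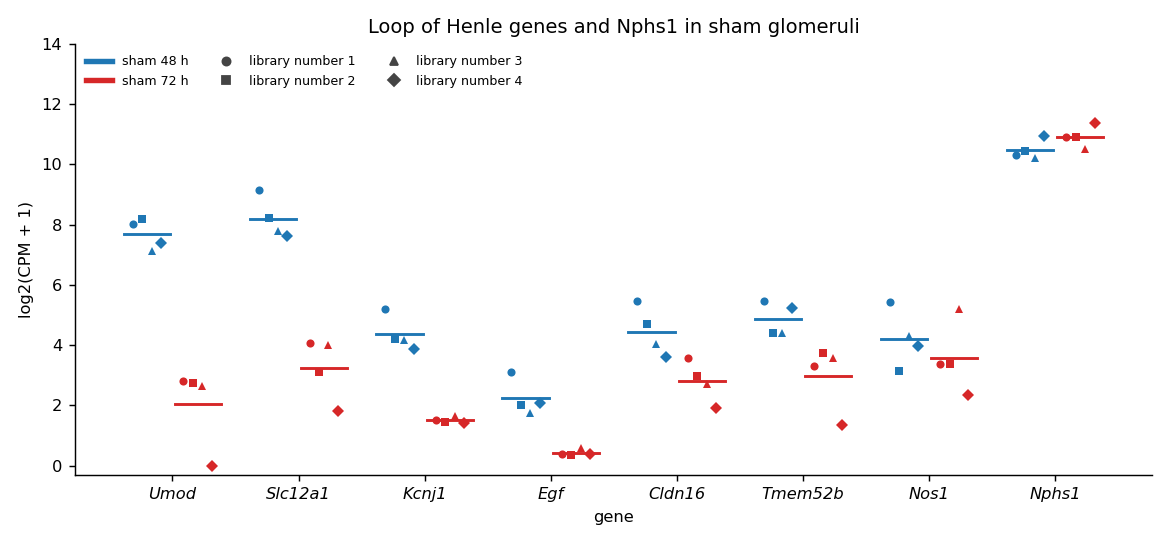
Each point is 1 sham glomerulus library, with log2(CPM + 1) on the vertical axis, 7 loop of Henle genes and the podocyte gene Nphs1 on the horizontal axis, and bars at the group means of the log values. Umod, Slc12a1, Kcnj1, Egf, Cldn16 and Tmem52b do not overlap between 48 h and 72 h, while Nos1 and Nphs1 do.

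Of the 15 tested members of the loop of Henle and distal tubule list, 9 had all 72 h libraries below all 48 h libraries, where 7.01% of all genes did, and 1 (Calb1, a distal calcium-binding protein, 1.41 to 2.57 against 2.63 to 4.88 CPM) had them above, where 6.26% did. The members called lower in the 8 libraries numbered 4, Umod, Slc12a1 and Kcnj1 among them, where 0.091% of all genes were called lower. Voom called 3 of the 15 lower and 2 higher, where it called 9.64% and 15% of all genes. Of the 3 named, voom called Slc12a1 alone and DESeq2 called none: DESeq2 gave adjusted p-values of 0.0648 for Umod, 0.0801 for Slc12a1 and 0.0982 for Kcnj1, and voom gave 0.0722, 0.0436 and 0.0715. The list's median log2 fold change was -1.84, and that of all genes was 0.30. Egf, made by the thick limb and distal tubule, read 7.71, 3.01, 2.33 and 3.22 CPM and then 0.303, 0.286, 0.494 and 0.312 CPM, a log2 fold change of -3.46 ± 0.67 with an adjusted p of 0.0568 by edgeR. Cldn16, the tight junction protein of the magnesium pathway, had 11.2 to 42.9 CPM at 48 h and 2.81 to 11 CPM at 72 h. Nos1, which marks the macula densa, overlapped at 41.8, 7.78, 19 and 14.8 CPM and 9.45, 9.44, 35.7 and 4.06 CPM.

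Further genes that fell outside the list include the calcium-sensing receptor Casr, also of the thick limb, at 56.3, 33.4, 25.8 and 28.9 CPM and then 6.42, 8.8, 7.53 and 4.17 CPM. Atp1b1, the beta subunit of the sodium pump that tubules hold in quantity, read 441, 298, 274 and 358 CPM and then 61.9, 61, 110.4 and 36.1 CPM. Car12, a membrane carbonic anhydrase, spanned 22.9 to 66.7 CPM at 48 h and 4.15 to 7.08 CPM at 72 h. Sostdc1, a secreted BMP and Wnt antagonist, spanned 17.3 to 30.6 CPM and 1.46 to 4.08 CPM. All 4 were called lower in the 8 libraries, none by DESeq2, and Casr and Atp1b1 but not Car12 or Sostdc1 by voom. They were picked out after their values were seen, as were Kcnj1, Cldn16 and Nos1. Atp1b1 and Car12 were also high in S1 segments of the proximal tubule, at 1253 to 2051 and 381 to 565 CPM at 48 h. In the proximal tubule list 0 of 35 members separated the groups. Its median log2 fold change was 0.40, against 0.30 over all genes. Over the list, the summed level of proximal genes was 1478 to 3054 CPM at 48 h and 1183 to 1599 CPM at 72 h. The collecting duct list summed to 42.7 to 83.3 CPM and then 61.2 to 79.5 CPM.

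Thick limb transcripts also varied from library to library in the other glomerulus groups. Umod read 189.7, 5.18, 354 and 2.42 CPM in sham glomeruli at 24 h, 368, 212, 258 and 0.21 CPM after nephrectomy at 48 h and 2.38, 111, 94 and 2.4 CPM after nephrectomy at 72 h. Each of those groups held both high and low libraries, and the high libraries of nephrectomy at 72 h lay below the sham 48 h range. In whole kidney, where the thick limb is always included, Umod stood at 1361 to 1825 CPM at 48 h and 1423 to 1898 CPM at 72 h, a log2 fold change of 0.12 ± 0.15. In S1 segments it was 0.442 to 1.22 and 0.276 to 3.95 CPM. Fewer cells of a type and less RNA per cell cannot be told apart in such libraries, and how much attached tubule each dissected glomerulus carried was not tested.

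Of the glucocorticoid-induced genes, 3 fell. Zbtb16 (PLZF), a zinc finger repressor strongly induced by glucocorticoids, read 116, 27.2, 39.7 and 13.6 CPM at 48 h and 4.25, 1.65, 5.31 and 1.56 CPM at 72 h. All 72 h libraries were below all 48 h libraries, and 48 h libraries 1 and 3 were the highest. Its log2 fold change was -3.86 ± 0.61 in the 8 libraries (edgeR adjusted p = 0.0283). Fkbp5, a co-chaperone that restrains the glucocorticoid receptor and is itself induced by it, read 174, 60.6, 118 and 83.5 CPM and then 25.2, 20.8, 38.8 and 23 CPM, a log2 fold change of -1.99 ± 0.32 (edgeR adjusted p = 0.0293). Sult1a1, a phenol sulfotransferase, read 33, 34.8, 29.5 and 37.7 CPM and then 7.84, 11.9, 13 and 14.3 CPM. Of the 20 tested genes of the glucocorticoid list these were the 3 called, all lower, and the same 3 separated the groups downward, while Tat and Angptl4 separated upward. Over all genes 7.01% separated downward and 6.26% upward. DESeq2 also called Zbtb16 and Fkbp5, but not Sult1a1 (adjusted p = 0.0648). The count downward was 6 without 48 h library 2 and 5 without 72 h library 3 or 4, where the share of all genes was not counted. The list's median was -0.50.

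Other members of the list did not pass, and 3 were chosen after their values were seen. Ddit4 (REDD1), an inhibitor of mTORC1, read 31.6, 11.8, 19.9 and 18.3 CPM at 48 h and 2.38, 5.58, 5.43 and 15 CPM at 72 h. Tsc22d3 (GILZ), an anti-inflammatory leucine zipper protein, overlapped at 270.4, 156, 216 and 183 and 95.3, 114, 176 and 154 CPM. Sgk1, a kinase that raises epithelial sodium transport, read 656, 910.1, 604 and 768 CPM and 576, 537, 915 and 1380.4 CPM, a log2 fold change of 0.21 ± 0.45 in the fit of 24 libraries.

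**Figure D2:**
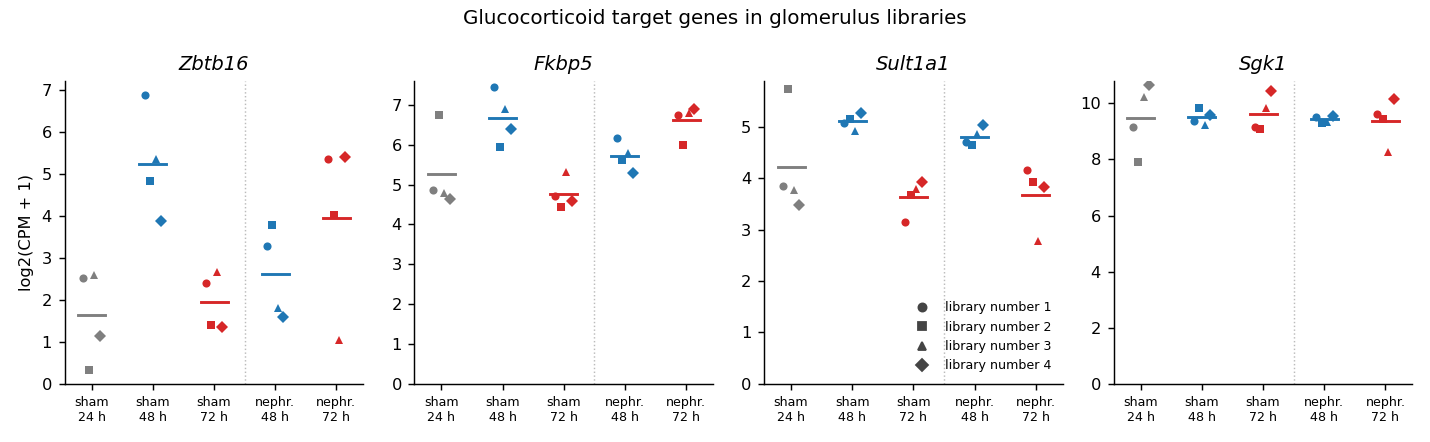
Glomerulus libraries of sham rats at 24, 48 and 72 h and of nephrectomized rats at 48 and 72 h, with log2(CPM + 1) on the vertical axis and bars at the group means of the log values. Zbtb16 and Fkbp5 are high in all sham 48 h libraries and low in all sham 72 h libraries, whereas most nephrectomy 72 h libraries are high, and Sgk1 overlaps in all groups.

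The same genes can be read in libraries from other dissections of sham rats, which may be the same rats, as the labels do not tell. In whole kidney, sequenced from a different library kit, edgeR called 4 of 15678 genes (0.0255%) between 72 h and 48 h, with 6.14% at an unadjusted p under 0.05. All were lower: Tsc22d3, Sgk1, Zbtb16 and Fmo2, of which the first 3 belong to the glucocorticoid list. Whole-kidney Zbtb16 spanned 15.5 to 47.1 CPM at 48 h and 1.65 to 5.07 CPM at 72 h (log2 fold change -3.23 ± 0.58, edgeR adjusted p = 0.0461). Whole-kidney Sgk1 spanned 148 to 229 CPM and 44.7 to 72 CPM (-1.72 ± 0.21, edgeR adjusted p = 0.00027). Whole-kidney Tsc22d3 spanned 111 to 129 CPM and 26.9 to 35.6 CPM (-1.91 ± 0.21). None of the 3 overlapped between the times. Fkbp5 there was 51.4 to 94.5 and 22.2 to 36.2 CPM with an adjusted p of 0.0514 by edgeR. In S1 segments, where 0 of 18124 genes passed (0%, and 889 or 4.91% at an unadjusted p under 0.05), Sgk1 read 853, 388, 463 and 326 and then 175, 92.7, 186 and 151 CPM, without overlap. The difference between glomeruli and S1 in the log2 change of Sgk1 was 1.90, with an unadjusted p of 0.0106 and an adjusted p of 1.00 by edgeR.

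After nephrectomy the log2 changes of Zbtb16 and Fkbp5 over the same interval had the opposite sign, while that of Sult1a1 had the same sign as in sham glomeruli (-1.10 and -1.53). Zbtb16 read 8.76, 12.8, 2.47 and 1.99 CPM at 48 h and 39.5, 15.2, 1.06 and 41.1 CPM at 72 h, and Fkbp5 read 70.8, 48, 54.1 and 37.9 and 107, 62.5, 111 and 118 CPM. In that group 3 of the 4 Zbtb16 values at 72 h exceeded all at 48 h, and library 3 of 72 h, the shallowest, was the lowest of all 8. The difference of the log2 changes, sham minus nephrectomy, was -5.83 for Zbtb16 and -2.93 for Fkbp5, with unadjusted p-values of 9.36e-05 and 0.000233 by edgeR. Neither passed over all genes (adjusted p = 1.00), and 0 of 21415 genes did (0%, with 272 or 1.27% at an unadjusted p under 0.05, or 2.29% without sham 24 h library 2), though DESeq2 called 4. At 24 h, sham Zbtb16 was 4.75, 0.256, 4.97 and 1.21 CPM, within or below the range at 72 h.

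Clock genes split the 48 h libraries into pairs. Nr1d1 (REV-ERB alpha), the repressor of Arntl, read 173, 12.2, 200.1 and 14 CPM at 48 h and 239, 154, 220.0 and 204 CPM at 72 h. Dbp, a PAR-bZIP factor driven by the clock, read 94.2, 13.5, 118 and 13.9 CPM and then 122, 98.3, 335 and 249.7 CPM. Ciart (CHRONO), another repressor of the BMAL1 complex, read 9.81, 0.311, 13.4 and 0.744 CPM and then 7.18, 10.2, 18.2 and 8.75 CPM. Arntl itself read 12, 49, 10.4 and 31.2 CPM and then 9.2, 9.95, 5.93 and 12.2 CPM. Libraries 2 and 4 of 48 h were thus low in Nr1d1, Dbp and Ciart and high in Arntl, libraries 1 and 3 were the reverse, and the 72 h libraries all resembled libraries 1 and 3. Nr1d1 and Ciart were picked out after their values were seen.

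The promoters of Arntl and Ciart show the letters through which this loop is known to run, and are printed because these genes stood at opposite levels in the same 48 h libraries. Shown are the 250 bases upstream of the annotated start, 5′ to 3′ on the gene's strand, from RefSeq on GRCr8, with motif matches in capitals. For Arntl (Bmal1 in RefSeq) the capitals mark AGTAGGTNA, a motif of the ROR and REV-ERB receptors, and for Ciart they mark CACGTG, the E-box that BMAL1 and CLOCK bind.
Arntl, chr1:176766078-176766327, plus strand: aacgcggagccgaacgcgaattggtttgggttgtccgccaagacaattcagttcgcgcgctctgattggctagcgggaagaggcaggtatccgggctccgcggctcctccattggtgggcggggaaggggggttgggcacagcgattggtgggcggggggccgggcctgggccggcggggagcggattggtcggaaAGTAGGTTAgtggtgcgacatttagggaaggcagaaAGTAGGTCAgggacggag
Ciart, chr2:186112247-186112496, minus strand: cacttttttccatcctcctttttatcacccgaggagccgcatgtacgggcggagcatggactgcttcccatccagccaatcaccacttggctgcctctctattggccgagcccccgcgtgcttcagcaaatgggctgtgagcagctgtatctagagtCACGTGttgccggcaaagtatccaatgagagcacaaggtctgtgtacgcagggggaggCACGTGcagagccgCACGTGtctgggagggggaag
Both strands were searched. The Arntl window held 2 matches, starting 54 and 18 bases upstream, and 171 of 33469 promoter windows of that length (0.511%) held at least 1. The Ciart window held 3 E-boxes, starting 93, 35 and 21 bases upstream, a motif found in 5.59% of windows. The windows of Dbp, Per2 and the first of 2 Nr1d1 starts held neither motif, and the second Nr1d1 start had an E-box 191 bases upstream. A match is a description of the letters, and binding was not measured here.

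**Figure D3:**
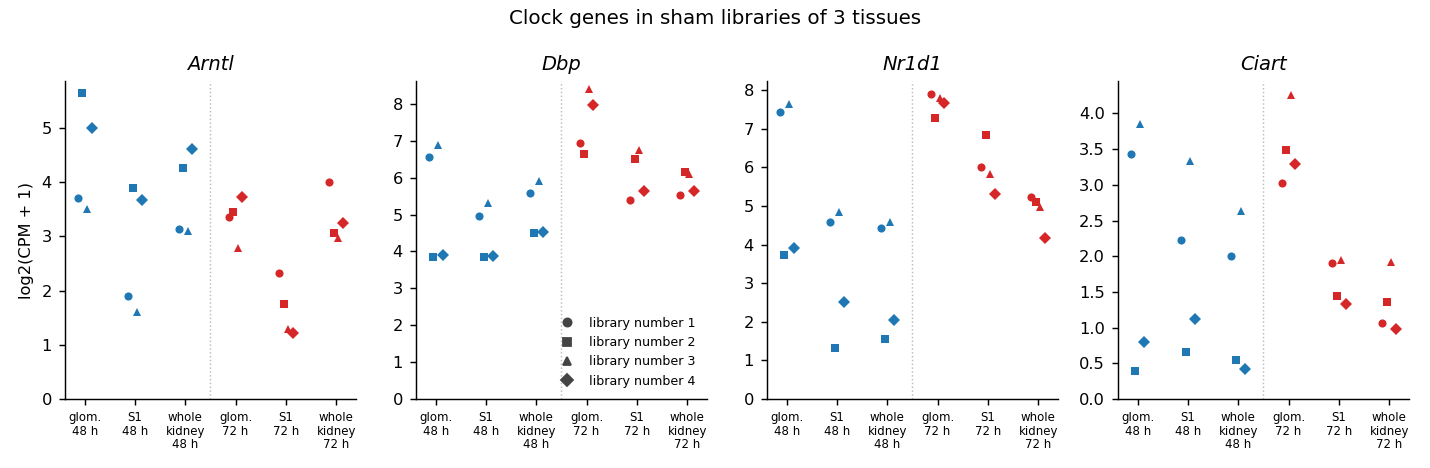
Sham libraries of glomeruli, S1 segments and whole kidney at 48 h (left of the dotted line) and 72 h (right), with log2(CPM + 1) on the vertical axis and 1 symbol for each library number. At 48 h, numbers 2 and 4 are the highest for Arntl and the lowest for Dbp, Nr1d1 and Ciart in all 3 tissues.

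The split carried the same numbers in the other tissues. In S1 segments at 48 h, Nr1d1 read 22.9, 1.49, 28 and 4.73 CPM and Arntl 2.72, 13.8, 2.05 and 11.8 CPM. In whole kidney at 48 h, Nr1d1 read 20.5, 1.94, 23 and 3.14 CPM and Arntl 7.82, 18.3, 7.62 and 23.4 CPM. The labels do not tell whether equal numbers stand for 1 rat, nor at which hour each rat was killed. Libraries 1 and 3, high in Nr1d1, were also the highest 48 h libraries for Zbtb16 and Fkbp5 in glomeruli, and for Zbtb16 in whole kidney (47.1, 18, 35.5 and 15.5 CPM).

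Across the clock list, 0 of 19 members passed in either fit of edgeR. The log2 fold changes of Arntl and Dbp were -1.46 ± 0.54 and 1.752 ± 0.69 in the fit of 24 libraries, with adjusted p-values of 0.41 and 0.42 by edgeR. The groups overlapped, through 48 h libraries 1 and 3 for Arntl and library 3 for Dbp. The members that separated the groups were Usp2, Per2 and Clock, all downward, or 3 of 19 where 7.01% of all genes did. Usp2, a deubiquitinase, read 34.5, 21.2, 39.8 and 19.2 and then 10.2, 9.95, 14.5 and 18.5 CPM, and Per2, a core repressor, read 103, 111, 133 and 97.3 and then 52.8, 74.4, 81.1 and 85.4 CPM. Per1, which answers both to the clock and to glucocorticoids, read 188, 57.7, 166 and 103 and 57, 59.4, 82.6 and 99.2 CPM. After nephrectomy, Per2 was the single gene called by edgeR (1 of 21415, 0.00467%), at 138 to 171 CPM at 48 h and 32.9 to 51.2 CPM at 72 h, with a log2 fold change of -1.92 ± 0.29 (adjusted p = 0.0115). Its sham value was -0.60 ± 0.28. Without sham 24 h library 2 the nephrectomy count was 170 (0.759%), 124 higher (0.553%) and 46 lower (0.205%), with 25.9% of genes at an unadjusted p under 0.05. It was 0 without nephrectomy 48 h library 1, 4 without nephrectomy 72 h library 1 and 904 without nephrectomy 72 h library 2. Arntl after nephrectomy read 6.52, 8.16, 4.95 and 11.6 and then 25, 29.1, 6.64 and 17.5 CPM. Nfil3, a repressor in antiphase to Dbp, had log2 changes of -1.004 ± 0.46 after sham surgery and 1.91 ± 0.47 after nephrectomy, a difference with an unadjusted p of 0.000165 and an adjusted p of 1.00 by edgeR.

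Immediate early genes are transcription factors that growth factors and handling induce within minutes, and 2 of the 33 tested in the 8 libraries rose. Jund, an AP-1 subunit, rose from 28.6, 25.3, 64.7 and 49.2 CPM to 145, 200.5, 281 and 459 CPM, a log2 fold change of 2.69 ± 0.40 in the 8 libraries (edgeR adjusted p = 0.0198). Fosb rose from 32.8, 21.6, 9.49 and 40.6 CPM to 198, 437, 127 and 369 CPM, a change of 3.48 ± 0.49 (adjusted p = 0.013). In both genes the lowest 72 h library was above the highest 48 h library.

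Further members were higher in every 72 h library without passing. Fos read 40.5, 42.3, 15.4 and 73.8 and then 102, 254, 85.4 and 260.0 CPM, Egr1 157, 158, 88.9 and 277 and then 361, 903, 379.8 and 565 CPM, and Junb 10.6, 10.1, 7.46 and 16.9 and then 17.2, 52.9, 40.6 and 57.4 CPM. Egr3 was near the detection limit, at 0.476 to 1.55 and 1.82 to 10.8 CPM. Of the 34 members tested in the fit of 24, 9 separated the groups upward, where 6.26% of all genes did, and 1 (Klf2) downward. A log2 fold change below 0 was found in 7, and the median log2 fold change was 0.93. Voom called 6 higher and 2 lower, where it called 15% and 9.64% of all genes. The count upward was 5 without 48 h library 3 or 72 h library 4, and 14 without 72 h library 1. In those settings scaling and filter were redone, which alone can lower a count, and the share of all genes was not counted. Nephrectomy glomeruli had a median of 1.27, with Jund at 17.8, 28.8, 57.6 and 72.5 and then 412, 128, 44.6 and 365 CPM. In whole kidney the list's median was -0.27, and Jund there was 25.2 to 37.3 and 31.2 to 38.5 CPM.

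Of the genes of DNA replication and mitosis none was called by edgeR, and 32 of 39 had a log2 fold change above 0, where 61.5% of all genes did. The other 7 were below 0. Over all genes the share below 0 differed with level, at 18.3% from 1.29 to 5.56 CPM and 54.1% from 5.57 to 28.9 CPM. Bub1b, a kinase of the spindle checkpoint, read 8.86, 2.49, 11.8 and 4.3 CPM and then 19.9, 18.5, 26.3 and 14 CPM. Foxm1, the factor that drives mitotic genes, read 9.24, 7.47, 4.04 and 6.2 and then 9.45, 10.2, 20.7 and 19.9 CPM. Top2a, the replication-coupled topoisomerase, read 37.1, 18.9, 25.3 and 30.7 and then 40.0, 42.1, 95 and 131 CPM. In each the groups were separate, by 9.24 against 9.45 CPM in Foxm1. Mki67, the usual proliferation marker, overlapped at 41.1, 30.7, 33.7 and 46.6 and 50.6, 44.9, 103 and 72.6 CPM, and so did the helicase subunit Mcm4 (10.9 to 19.9 and 19.9 to 36.2 CPM). Of 39 members, 12 separated the groups upward and 0 downward, against 6.26% and 7.01% of all genes. Voom called 5 higher and 1 lower, no larger shares than the 15% and 9.64% of all genes it called. The median was 0.82 (0.93 after nephrectomy, -0.02 in S1 and 0.01 in whole kidney). The count upward was 7 without 48 h library 3 and 18 without 72 h library 2 or with another scaling (RLE size factors). These settings too had scaling and filter redone, and the share of all genes was not counted.

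Several genes that rose had low levels at 48 h, and the median log2 fold change of all genes was also above 0 among genes of low level (1.19 in the lowest quartile of mean level and 0.90 in the next). Prr36, a proline-rich protein, rose from 1.14, 2.9, 3.27 and 1.74 CPM to 17.4, 8.66, 44.3 and 38 CPM (3.59 ± 0.50, edgeR adjusted p = 0.013). Ahsg (fetuin-A), a plasma protein of the liver, rose from 0.762, 0.622, 3.73 and 0.496 CPM to 10.3, 7.37, 65 and 35.5 CPM (4.47 ± 0.77, adjusted p = 0.0409). Sbsn (suprabasin), an epidermal protein, rose, at 1.07 to 3.42 CPM at 48 h and 10.4 to 22.2 CPM at 72 h. Loxhd1, a protein of inner ear hair cells, rose too, at 0.83 to 5.75 and 12.4 to 28.6 CPM. The epidermal genes Krt77 and Casp14 and the inner ear gene Otol1 were also among the 11 called higher, at 5.1 to 8.52, 11.5 to 19.4 and 5.11 to 11.9 CPM at 72 h, and were singled out after their values were seen. In nephrectomy glomeruli Prr36 read 0.611, 1.1, 1.88 and 3.35 and then 12, 3.68, 44.6 and 33 CPM. Sham glomeruli at 24 h had 10.8, 3.54, 23.5 and 58.4 CPM.

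Further genes named on the higher side were Gpatch4, Incenp, Sec14l4, Hmgn2, Clcf1 and Casq1, with log2 fold changes of 1.95, 1.95, 2.54, 1.78, 1.499 and 1.26 in the fit of 24 libraries. Of these, Sec14l4 rose in the 8 libraries. Hmgn2, a nucleosome-binding protein, read 14.5, 12.1, 14.3 and 11.8 and then 18, 15.5, 71.2 and 76.1 CPM. Its libraries 3 and 4 of 72 h were high and libraries 1 and 2 lay closer to the 48 h group. The same pair of libraries was higher in Pdgfrb, the receptor that marks mesangial cells and pericytes, at 201, 219, 467 and 645 CPM against 605, 686, 422 and 628 CPM at 48 h. Summed over the mesangium and smooth muscle list, the 72 h libraries held 2062, 2215, 4228 and 5363 CPM, and the 48 h libraries 3630 to 4666 CPM.

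Of the endothelial list, 3 of 22 members separated the groups downward, where 7.01% of all genes did, and 1 upward, where 6.26% did. None was called in the 8 libraries. Lpl, the lipase bound to capillary endothelium, read 399, 534, 547 and 649.9 CPM and then 215, 199, 201 and 235 CPM (-1.30 ± 0.25, edgeR adjusted p = 0.0568 in the 8 libraries). It was 1 of the 3 genes called without sham 24 h library 2, all lower, with Fkbp5 and RGD1309621. Tek (TIE2), the angiopoietin receptor, read 834, 1187, 617 and 665 and then 322, 442, 265 and 469 CPM, and Ptprb (VE-PTP), the phosphatase that restrains it, read 787, 1050.2, 536 and 761 and then 254, 339, 221 and 506 CPM. Both were separate between groups. Kdr, the main VEGF receptor, overlapped at 1937 to 3152 and 1224 to 2031 CPM. Vegfa, which podocytes supply, was higher in every 72 h library (1602 to 2331 against 927 to 1529 CPM). The endothelial list had a median of -0.20. Its summed level was 8479.5 to 12180.0 CPM at 48 h and 4873, 6495, 7385 and 12684.5 CPM in 72 h libraries 1 to 4.

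The list of renin-angiotensin, prostaglandin and nitric oxide genes had 18 of 23 members below 0, where 38.5% of all genes were, and 5 separated downward, against 7.01% of all genes. By level, 70.8% of all genes in the highest quartile of mean CPM were below 0, and 54.1% in the next. Agtr1a, the angiotensin II receptor of mesangial cells, read 178, 272, 161 and 199 and then 106, 98.8, 143 and 104 CPM. Gucy1b3, a subunit of the nitric oxide receptor, read 79.2, 116, 63.8 and 85.6 and then 42.8, 44.2, 28.5 and 45.4 CPM. Mme (neprilysin), the peptidase of podocytes, overlapped at 64.4 to 158 and 38.9 to 76.9 CPM. None was called by edgeR, and voom called 8 of the 23, all lower, where it called 9.64% of all genes lower.

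Among collagens and basement membrane genes, 24 of 35 were below 0, where 38.5% of all genes were. That share of all genes rose with level, to 70.8% in the highest quartile of mean CPM (28.9 and above). Of the 35, 3 separated downward and 2 upward, close to the 7.01% and 6.26% of all genes. Voom called 12 lower and 2 higher, where it called 9.64% and 15% of all genes, and edgeR called 0. Fn1 (fibronectin) read 1284, 1671, 948 and 1439.9 and then 385, 436, 634 and 939 CPM. Col12a1, a fibril-associated collagen, read 781, 1158, 419 and 840.3 and then 237, 238, 371 and 371 CPM. Nid2, which links laminin and collagen networks, read 487 to 665 and 268 to 404 CPM. These were the 3 that separated downward, and the 2 that separated upward are not shown.

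In the interferon-response list, 25 of 27 members had a log2 fold change below 0, where 38.5% of all genes did, with a median of -0.71. Over all genes the share below 0 was 70.8% in the highest quartile of mean CPM and 54.1% in the next. Of the 27, 3 separated the groups, all downward, against 7.01% of all genes. EdgeR called 0, and voom called 13 lower, against 9.64% of all genes. Mx1, an antiviral GTPase, read 76.9, 32, 16.2 and 9.34 and then 16.7, 8.59, 12.2 and 14.4 CPM. Irf9, a subunit of the interferon-stimulated complex, read 78.2, 38.9, 59.6 and 43.6 and then 15.9, 29.5, 27.8 and 32.4 CPM. Ddx58 (RIG-I), a sensor of viral RNA, overlapped through 48 h library 4 (24.9 CPM). Ifnar1, a chain of the type I interferon receptor, was separate at 58.9 to 78.9 and 31.2 to 37.3 CPM. The 48 h library 1 was the highest for Mx1, Ddx58 and Irf9.

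The podocyte list had a median near 0. Of 19 tested, 0 separated the groups and the median log2 fold change was 0.00, against 0.30 over all genes. Nphs1 had a log2 fold change of 0.44 ± 0.64. Wt1, the podocyte transcription factor, read 170.3, 339, 145 and 323 and 196, 153, 139 and 136 CPM (-0.65 ± 0.62). The intervals of these differences are wide, and a missed threshold does not show that the levels were alike.

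Of 18 macrophage and monocyte markers, 2 separated upward and 2 downward, close to the shares of all genes, among them the lysozyme gene Lyz2 at 75.4 to 142 and then 40.3 to 68.7 CPM and the lysosomal protein gene Cd68 at 11 to 19.4 and then 24.4 to 33.5 CPM. The cytokine list had 0 of 29 members separated, and its chemokine Cxcl1 read 2.38, 7.57, 3.11 and 15.1 and 17.9, 122, 26.9 and 7.91 CPM. Genes of the nuclear-encoded respiratory chain had 30 of 36 members below 0 and 9 separated downward, against 38.5% and 7.01% of all genes, such as Sdha (succinate dehydrogenase) at 179 to 233 and then 72.1 to 112 CPM. The share of all genes below 0 was 70.8% in the highest quartile of mean CPM. Smooth muscle actin (Acta2), the collecting duct water channel Aqp2 and the globin gene Hbb overlapped, at 49.4 to 111, 0.413 to 1.71 and 7.98 to 248.9 CPM at 48 h and 44.8 to 97.2, 0.625 to 4.25 and 4.29 to 77.2 CPM at 72 h.

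**Figure D4:**
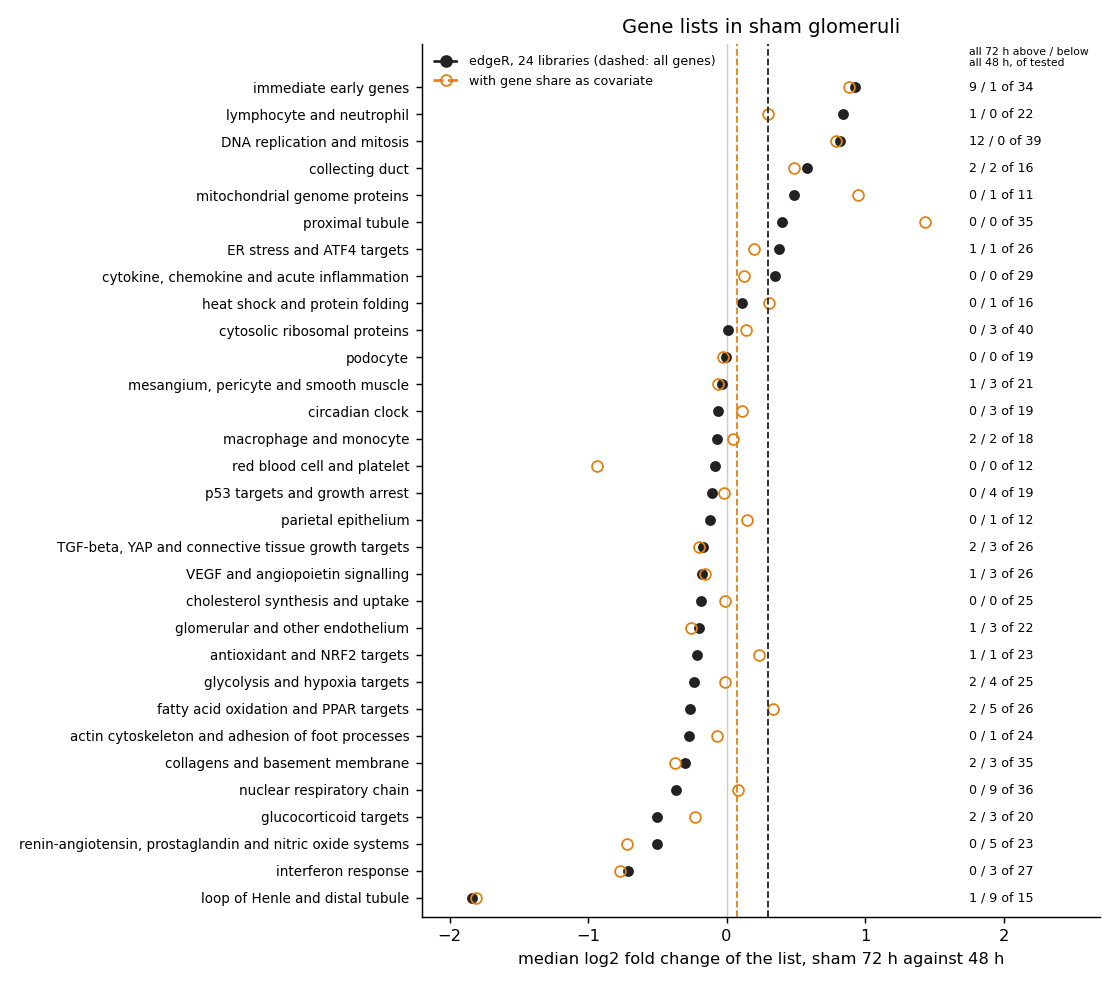
Each row is 1 of 31 gene lists, with its median log2 fold change (sham 72 h against 48 h, horizontal axis) in the fit of 24 libraries (filled) and with the gene share of reads as a covariate (open), dashed lines at the medians over all genes (0.30 and 0.07), and at the right the members with all 72 h libraries above or below all 48 h libraries. The loop of Henle list lies at -1.84 and -1.81, while the proximal tubule list moves from 0.40 to 1.43. The covariate fit includes sham 24 h library 2, with a gene share of 65.8% and a high proximal level.

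On the lower side, the genes named by rule were Glce, Lifr, Cped1, Zbtb16, Ifnar1, Mbd5, Cpd, Vps13b, Fkbp5, Kpna4, Erbb4 and Lyst. Lifr, the receptor of leukemia inhibitory factor, fell from 666, 1026, 467 and 708 CPM to 200.3, 240.3, 151 and 229.6 CPM (-1.754 ± 0.29, edgeR adjusted p = 0.0373). Glce, an epimerase of heparan sulfate synthesis, read 69.1, 63.6, 54 and 51.9 and then 22.9, 32, 26.4 and 28.2 CPM (-1.12 ± 0.24). All but Erbb4 of these 12 were separate between groups, and their log2 fold changes other than those of Zbtb16 and Fkbp5 ran from -1.80 to -1.02. The unnamed locus RGD1309621, singled out after its values were seen, was the 1 gene called when the gene share of reads was added as a covariate (edgeR adjusted p = 0.0398). It read 814, 774, 673 and 498 CPM at 48 h and 278, 252, 214 and 199 CPM at 72 h, and 328 to 587 and 417 to 549 CPM after nephrectomy.

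Over all genes, the log2 fold change differed with level and with the transcript length implied by the deposited RPKM. The median log2 fold change was 0.30, and 61.5% of genes were above 0. It was 1.19 in the quartile of genes with the lowest mean CPM and -0.30 in the highest, and 0.93 in the shortest quartile and -0.06 in the longest. From the lowest to the highest quartile of mean CPM, 10.7, 18.3, 54.1 and 70.8% of genes were below 0. With the gene share of reads as a covariate the median was 0.07. The covariate was fitted on all 24 glomerulus libraries. Among them was sham 24 h library 2, at 65.8% against 17.5 to 24.4% in the rest of its group. A covariate fit without that library was not run. With the covariate the log2 fold change of Umod was -6.72, of Zbtb16 -4.44, of Jund 2.68, of Prr36 3.28 and of Lpl -1.63, none with an adjusted p under 0.05. The part of the gene share in the sham difference was not tested beyond this covariate.

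**Figure D5:**
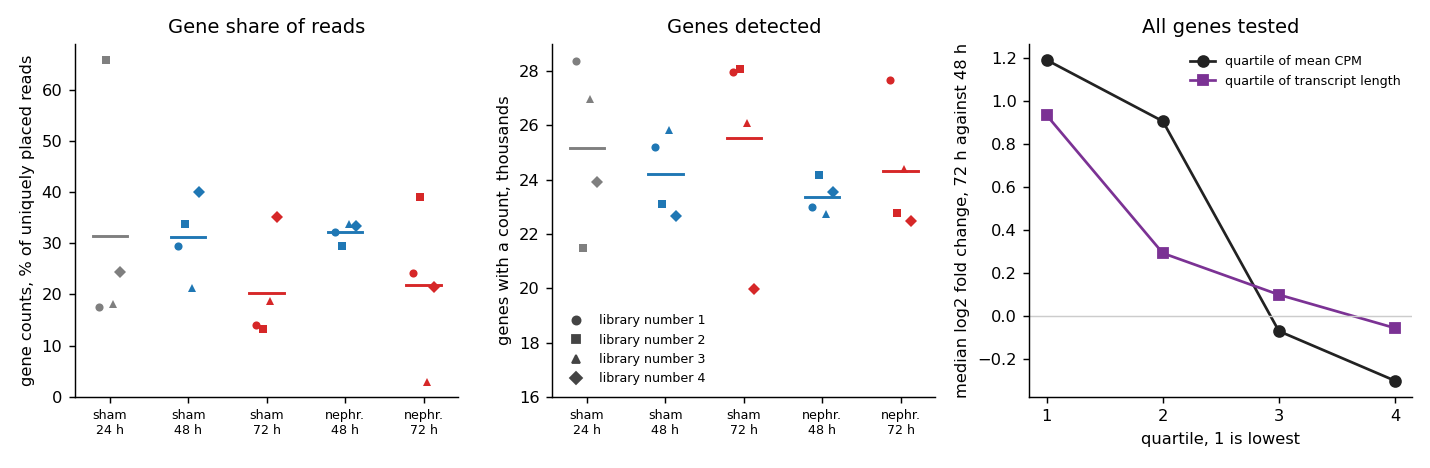
Left and middle, the percent of uniquely placed reads that fell in genes and the number of genes with a count for each glomerulus library of 5 groups, with bars at the means. Right, the median log2 fold change of sham 72 h against 48 h in quartiles of all genes by mean CPM and by transcript length, falling from 1.19 to -0.30 and from 0.93 to -0.06.

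The comparison with S1 segments asked whether the change over the interval differed by tissue. No gene passed: 0 of 23776 (0%), with 633 (2.66%) at an unadjusted p under 0.05 by edgeR. Among genes with a mean of at least 5 CPM, the smallest p-values were those of Slc12a1, Umod and Ntf3, a neurotrophin. The log2 change in glomeruli minus that in S1 was -5.62 for Slc12a1, -6.85 for Umod and -1.56 for Ntf3, each with an adjusted p of 1.00. Ntf3 read 21.5, 26.4, 27.1 and 20.7 and 10.2, 14.6, 17.5 and 23.8 CPM in glomeruli and 7.01, 7.08, 10.3 and 8.81 and 12.3, 21.7, 13.9 and 17.3 CPM in S1. Over all genes the log2 changes of sham and nephrectomy glomeruli, which share no library, had a Pearson r of 0.67 (21415 genes) and the same sign in 82.7%, with r of 0.32 against S1 and 0.083 against whole kidney. These describe the libraries, of which the dissected tissues share a library kit, and genes are not independent replicates.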

How the data were processed

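Counts per gene for 24 glomerulus, 24 S1 and 24 whole kidney libraries were deposited. Per the submitters' processing notes the authors used Trimmomatic 0.32, STAR 2.4.0.1, SAMtools and HTSeq. Build and annotation release remain not given in the sources used here, nor is the strand setting of the counting. Overlapping and antisense genes therefore cannot be told apart in these counts. The deposited RPKM values, made by the authors per gene length and per 1000000 reads, served only as an alternative and for gene length. Per the labels' protocols, glomerulus and S1 libraries came from the NuGEN Ovation V2 kit and were read single-end, and whole kidney was read paired-end from TruSeq Stranded libraries.

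Genes with enough counts (filterByExpr, minimum 10) were fitted with edgeR 4.0.16 (TMM, quasi-likelihood F test, Benjamini-Hochberg over all genes, threshold 0.05) on the 24 glomerulus libraries with 6 groups, without a replicate block. S1 differences used 48 libraries, and whole kidney was fitted apart. CPM use TMM library sizes, errors of log2 fold changes are SE, and a library's values are listed in the order of its number, 1 to 4. Alternatives used limma 3.58.1 and DESeq2 1.42.0, and the edgeR code was tested on simulated data. Named genes were the 12 of smallest p in each direction with a mean of at least 5 CPM, since none passed, up to 3 of each of 31 gene lists, the 3 of smallest p for each difference between changes, and a fixed set. The members and lists were chosen with earlier results of these data known. No libraries of a group were near-identical. Some named genes are not reported here.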

Additional observations from a re-analysis of the deposited data

Results flagged for a closer look

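Within groups of 4 libraries, 15 of 210 sets of values of the named genes had 1 library far from the other 3 (Dixon's ratio above its 95% critical value). Chance flags about 1 in 20 such groups, and genes in 1 library are not independent. Library 1 of 48 h gave 4 of them, all high and all tubular: Slc34a1 at 42.4 CPM, Kcnj1 at 36.0, Egf at 7.71 and Car12 at 66.7 CPM. Library 3 of 48 h was high for Loxhd1 at 5.75 and Ahsg at 3.73 CPM, and library 2 of 48 h for Sdha at 233 CPM. Library 3 of 72 h was high for Egf at 0.494, Nos1 at 35.7, Agtr1a at 143 and Casp14 at 19.4 CPM, and low for Gucy1b3 at 28.5 CPM. In the other 72 h libraries, Umod stood at 0 CPM in library 4, Rpl5 at 48.4 CPM in library 1, below the others, and Cxcl1 at 122 CPM in library 2, above them.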

How the results depend on the processing

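The count of 0 genes for sham glomeruli was also 0 with RLE size factors, without the low-count filter, with limma on log2(RPKM + 1) and log2(RPKM + 0.1), without mitochondrial genes, and without each of the 8 libraries (0 to 0). It was 44 with DESeq2, 3 without sham 24 h library 2, 27 with the 8 libraries alone, 5267 with voom quality weights and 1 with the gene share as a covariate, an alternative chosen after seeing the data. Leaving out 1 library of the 8 gave 4 to 597. The nephrectomy count of 1 was 2 without the filter, 2563 with DESeq2, 170 without sham 24 h library 2, 4 without that library and nephrectomy 72 h library 3, and 0 to 904 leaving out 1 library. The difference between sham and nephrectomy gave 4 genes with DESeq2, that between glomeruli and S1 gave 2, and the other alternatives run gave 0. Separated members, leaving out 1 library, ran from 9 to 10 for the loop of Henle list, 3 to 6 for glucocorticoid targets, 5 to 14 for immediate early genes and 7 to 18 for DNA replication. On fixed values, leaving out a library can only keep or add separated members. Scaling and the low-count filter were redone in each setting, so the counts could also fall. The share of all genes that separated was not counted in those settings. Same-numbered 48 h and 72 h libraries correlated by 0.067, 0.29, 0.17 and 0.33, and 3 of the 4 (numbers 2, 3 and 4) correlated best with their own number, a hint of pairing from the data that the labels do not give. The planned fit had no block and was kept. The rats of 48 h and 72 h are different animals, and the labels do not say that a number marks a shared litter or day. With the replicate block the sham count was 0, the nephrectomy count 24 and both differences 0. Sham glomeruli and S1 of equal number correlated by 0.28, 0.39, 0.43 and 0.40 at 48 h, each best with its own number. At 72 h the values were 0.43, 0.34, 0.58 and 0.086, and number 4 correlated best with number 3. With whole kidney, numbers 1 and 3 of 48 h correlated best with their own, and no number of 72 h did. Without the block, the fit of 48 libraries treated glomeruli and S1 as independent.

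Of 105 genes followed, 103 kept their direction in every alternative run. Sgk1 turned to -0.08 without 48 h library 3, -0.30 without 72 h library 4 and -0.15 with voom (-0.30 to 0.32 leaving out 1 library), and Fam111a to 0.28 with voom. The cause was not tested. With 4 libraries a group, spread between libraries limits the precision. Counting noise was not measured apart from that spread, and it weighs most in genes of few counts, such as those near 1 CPM.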

Other observations

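Fam111a, a protease that protects cells against some viruses and aids replication, was low in 1 library number of each sham group, the same number in the tissues read: number 1 at 48 h and 72 h and number 2 at 24 h. In sham glomeruli it read 8.57, 181, 263 and 256 CPM at 48 h, 10.5, 221, 121 and 114 CPM at 72 h and 185, 9.02, 130.1 and 165 CPM at 24 h. In sham S1 it read 3.16, 25, 16.4 and 44 and 3.81, 25.2, 27.5 and 13.3 CPM, and in whole kidney 1.57, 40.4, 35.4 and 93.5, 3.03, 47.8, 59.3 and 21.8 and, at 24 h, 82.6, 0.868, 99.7 and 174 CPM. Nephrectomy glomeruli were low in all libraries at 48 h (3.46, 5.61, 5.84 and 5.87 CPM) and in number 1 alone at 72 h (10.7, 309.6, 334 and 765 CPM). The strain is outbred, and genotype was not tested.

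Among the remaining genes that fell in the 8 libraries were Plau (urokinase), at 71.8, 41.2, 32.3 and 43.6 CPM and then 9.71, 11.6, 20.9 and 6.87 CPM, Hyal1, a lysosomal hyaluronidase, at 71.5, 118, 87.5 and 105 and then 24.9, 30.6, 28.2 and 41.3 CPM, and Ndrg4, at 39.3, 39.1, 23.9 and 21.3 and then 6.42, 7.3, 8.77 and 12.6 CPM. They were picked out after their values were seen. Id2, an inhibitor of bHLH factors, did not pass and read 14.4, 17.3, 8.86 and 19.8 and then 23.2, 31.9, 69.8 and 63.3 CPM, with libraries 3 and 4 of 72 h highest. Mt-nd6, the protein gene of the mitochondrial light strand, read 85.8, 76.2, 93.5 and 47.4 and then 495, 205, 211 and 70.2 CPM, and the libraries were not strand-specific by their labels. Tp53inp1, a p53 target, spanned 16.9 to 46.1 CPM at 48 h and 10.6 to 13.3 CPM at 72 h without overlap.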
